A study of Mus musculus with 8 samples.

Results

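Mast cell genes were followed through 8 arrays of RNA from adherent mouse peritoneal lavage cells. The 9 genes Mcpt4, Cma1, Cpa3, Tpsb2, Tpsab1, Kit, Ms4a2, Fcer1a and Gata2 were chosen by name and matched to array probes by RefSeq accession. Of the 9, 8 had a probe among the 21150 genes named on the array, with 9 probes in all because Tpsb2 had 2, and no probe was matched to Tpsab1, which the gene table lists as a transcribed pseudogene. Of these, 7 genes passed the filter on dim probes and could be tested, 6 of them well above background on all 8 arrays, and Ms4a2 was not well above background on any of the 8 arrays.

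The arrays fell into 4 groups of 2, all from 8-week-old mice, male or female, bred on a 129/C57Bl6 background. Fra-1 knockout arrays came from Fra-1lox/lox MxCre-/+ mice (Fra-1ΔMxCre), and Fra-1 control arrays from littermates that carried the floxed Fra-1 alleles with no Cre. Fra-2 knockout arrays came from Fra-2lox/lox LysMCre-/+ mice (Fra-2ΔLysMCre), and Fra-2 control arrays from Fra-2lox/lox littermates. Fra-1 and Fra-2 are subunits of the transcription factor AP-1, the Mx promoter answers to interferon in many cell types, and the LysM promoter is active in myeloid cells. How MxCre was induced is not given in the sources used here. All lavage cells were cultured overnight and cells in suspension were discarded before the RNA was taken. Only the 4 arrays of the Fra-1 line are labelled thioglycollate elicited, thioglycollate being an irritant that draws inflammatory cells into the peritoneum; the 4 arrays of the Fra-2 line carry no such label. Line, floxed allele, Cre driver of the knockouts and thioglycollate label therefore go together and cannot be told apart. Nothing beyond a count of mice states that the 2 arrays of a group came from separate preparations, so p-values measure the spread between these arrays.

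Mast cells are resident cells of connective tissue and of the peritoneal cavity, recognised by secretory granules loaded with proteases, histamine and serotonin. The receptor Kit, bound by stem cell factor, keeps them alive, and the high-affinity IgE receptor, built from Fcer1a, Ms4a2 and the shared chain Fcer1g, triggers granule release. Gata2 is a transcription factor needed for mast cell development.

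Signals are given as normalized log2 signal, the log2 of the scanner's background-subtracted intensity minus the log2 of that array's 75th percentile, so that 0 is the 75th percentile and a difference of 1 is a doubling of signal. Levels of different probes are not comparable, and only differences within a probe were read. The 75th percentile of signal ran from 315.4 to 470.2 and the share of spots well above background from 47.7% (Fra-2 knockout 1) to 57.6% per array. A gene was called changed at a Benjamini-Hochberg adjusted p below 0.05 in limma, fitted to 4 group means over all 23118 features kept. Fosl1, which encodes Fra-1, read −2.73 and −1.97 in the Fra-1 controls and −4.78 and −4.18, not well above background, in the Fra-1 knockouts (limma adjusted p = 0.358). The 2 probes of Fosl2, which encodes Fra-2, went opposite ways in the Fra-2 knockouts, at −1.27 and 1.24 on the log2 scale, and neither passed (limma adjusted p = 0.299 and 0.210). Whether these probes lie in the deleted parts was not tested. All 12 macrophage markers listed had a probe well above background on all 8 arrays in these cells labelled macrophages.

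Promoter sequence was available for 7 of the 9 genes. The windows shown, of 3 granule protease genes and the IgE-binding receptor chain, are those of the tested members that held the letters GATAA. Kit and Gata2 moved the same way in the results that follow, but their windows had no match and are not shown. Each window shown is the 250 bases before the RefSeq transcript start on assembly GRCm38.p6, written 5′ to 3′ on the strand of the gene. GATAA, the core bound by GATA factors, or its reverse complement TTATC is in capitals. They lie on the minus strand at chr14:56062311-56062560, chr14:55944676-55944925, chr3:20242182-20242431 and chr1:173227230-173227479 in that order.
Mcpt4: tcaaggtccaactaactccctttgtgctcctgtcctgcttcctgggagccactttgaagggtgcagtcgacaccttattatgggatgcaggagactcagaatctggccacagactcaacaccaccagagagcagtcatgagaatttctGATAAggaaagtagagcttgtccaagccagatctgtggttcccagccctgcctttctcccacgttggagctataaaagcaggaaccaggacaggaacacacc
Cma1: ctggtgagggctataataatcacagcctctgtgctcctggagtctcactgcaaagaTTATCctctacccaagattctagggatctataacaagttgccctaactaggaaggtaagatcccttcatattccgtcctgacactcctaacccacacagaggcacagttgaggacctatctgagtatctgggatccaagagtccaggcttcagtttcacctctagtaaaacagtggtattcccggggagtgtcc
Cpa3: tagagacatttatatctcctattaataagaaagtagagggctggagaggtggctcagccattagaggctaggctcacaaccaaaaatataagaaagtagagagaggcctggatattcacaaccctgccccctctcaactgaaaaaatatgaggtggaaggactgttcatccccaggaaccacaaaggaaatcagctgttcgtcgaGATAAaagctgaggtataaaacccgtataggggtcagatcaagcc
Fcer1a: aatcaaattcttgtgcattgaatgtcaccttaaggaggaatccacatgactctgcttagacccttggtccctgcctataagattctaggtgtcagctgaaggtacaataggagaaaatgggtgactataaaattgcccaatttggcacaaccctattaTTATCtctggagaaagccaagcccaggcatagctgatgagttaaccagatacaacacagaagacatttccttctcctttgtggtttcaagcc
The match began 102 bases before the start in Mcpt4, 194 in Cma1, 45 in Cpa3 and 92 in Fcer1a. Searched on both strands, GATAA stood in 5 of the 9 windows of the 7 members with a promoter entry, since Kit and Gata2 have 2 windows each and no match, and in 22.6% of 32851 windows of all genes. The fifth window was that of Ms4a2, with 3 matches. AGATAA, which contains GATAA, stood in 3 of the 9 windows (Fcer1a, Cpa3 and Ms4a2) and in 9.99% of all windows. CATGTG, an E-box used by the mast cell factor MITF, stood in 1 of the 9, that of Fcer1a, against 12.3% of all windows. TGANTCA, the AP-1 site, stood in 0 of the 9 against 6.75% of all windows.

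Mast cell genes were far lower in the Fra-1 line than in the Fra-2 line. All 7 tested genes were called lower, by 10.2-fold for Gata2 to 147.3-fold for Mcpt4, against 26.3% of all features called lower in this comparison. Calls in either direction took 53.6% of all features, 27.3% being higher, and 59.9% had an unadjusted p below 0.05, as all 7 had. For all 7, every one of the 4 Fra-1 line arrays lay below every one of the 4 Fra-2 line arrays, which held for 24.7% of all features. The median log2 difference of the 7 was −5.73, beside −0.0027 over all features tested, whose median size of difference was 0.475. Only 2.58% of all features were at least 8-fold lower in the Fra-1 line, a size that all 7 passed, and 1.29% were at least 16-fold lower, as were 5 of the 7, all but Tpsb2 and Gata2. Since these are bulk samples, fewer mast cells and less RNA per mast cell cannot be told apart.

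Mcpt4 is the chymase of connective tissue mast cells, a protease stored in their granules. Its normalized log2 signal was 5.03 and 2.79 in the Fra-2 controls, 3.13 and 4.29 in the Fra-2 knockouts, −3.82 and −2.38 in the Fra-1 controls and −3.77 and −3.60 in the Fra-1 knockouts. The lowest Fra-2 line array and the highest Fra-1 line array were 5.17 apart, more than the range within either line. Mcpt4 differed by −7.20 ± 0.60 (SE, limma, adjusted p = 0.000261), with a 95% interval from −8.67 to −5.73.

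Cma1, another chymase-family granule protease, read 4.51 and 3.10 in the Fra-2 controls, 2.99 and 4.20 in the Fra-2 knockouts, −1.99 and −1.55 in the Fra-1 controls and −2.58 and −2.80 in the Fra-1 knockouts. Its difference between lines was −5.93 ± 0.40 (SE, limma, adjusted p = 0.000127). Cpa3 encodes the carboxypeptidase that is stored beside these chymases. Its signal was 5.58 and 4.01 in the Fra-2 controls, 3.89 and 5.10 in the Fra-2 knockouts, −0.86 and −0.32 in the Fra-1 controls and −1.56 and −1.61 in the Fra-1 knockouts, a difference of −5.73 ± 0.43 (SE, limma, adjusted p = 0.000176). Both genes stood high on all 4 Fra-2 line arrays and low on all 4 of the Fra-1 line, with no overlap.

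Tpsb2, a tryptase of the granules, was read by 2 probes that differed in the size of the gap. The brighter probe read 4.29 and 3.05 in the Fra-2 controls, 2.87 and 4.19 in the Fra-2 knockouts, 0.21 and 0.14 in the Fra-1 controls and −0.81 and −0.22 in the Fra-1 knockouts, a difference of −3.77 ± 0.40 (SE, limma, adjusted p = 0.000611). The dimmer probe gave −5.78 ± 0.48 (SE, limma, adjusted p = 0.000263), 2.01 further apart. The direction was the same on both, and the fold for Tpsb2 is uncertain, also because tryptase genes are close copies of each other that a probe may not separate.

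Kit, the receptor for stem cell factor, read 1.25 and 0.55 in the Fra-2 controls, −0.57 and 0.80 in the Fra-2 knockouts, −3.50 and −3.60 in the Fra-1 controls and −3.52 and −4.08 in the Fra-1 knockouts. It was 18.2-fold lower in the Fra-1 line (−4.19 ± 0.34, SE, limma, adjusted p = 0.000245). Fcer1a, the chain of the IgE receptor that binds IgE, read 3.22 and 1.30 in the Fra-2 controls, 1.36 and 2.69 in the Fra-2 knockouts, −4.00 and −3.36 in the Fra-1 controls and −4.59 and −4.94 in the Fra-1 knockouts. On both Fra-1 knockout arrays it was not well above background, so its fitted difference of −6.36 ± 0.50 (SE, limma, adjusted p = 0.000217) includes background on 2 of the 4 Fra-1 line arrays. Between the control arrays alone, all 4 above background, the difference of Fcer1a was −5.94.

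Ms4a2, the chain that amplifies the IgE receptor's signal, gave −4.73, −6.39, −5.76 and −5.57 on the Fra-2 line arrays and −6.79, −6.83, −6.43 and −6.26 on the Fra-1 line arrays, all read as not well above background. No fold is given for it. Gata2, the transcription factor of the list, read 0.52 and −0.85 in the Fra-2 controls, −1.11 and −0.07 in the Fra-2 knockouts, −3.69 and −3.08 in the Fra-1 controls and −4.15 and −3.99 in the Fra-1 knockouts. The gap for Gata2 was the smallest of the 7 genes, at −3.35 ± 0.38 (SE, limma, adjusted p = 0.000816), and still left the lines 1.98 apart at their nearest arrays.

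**Figure D1:**
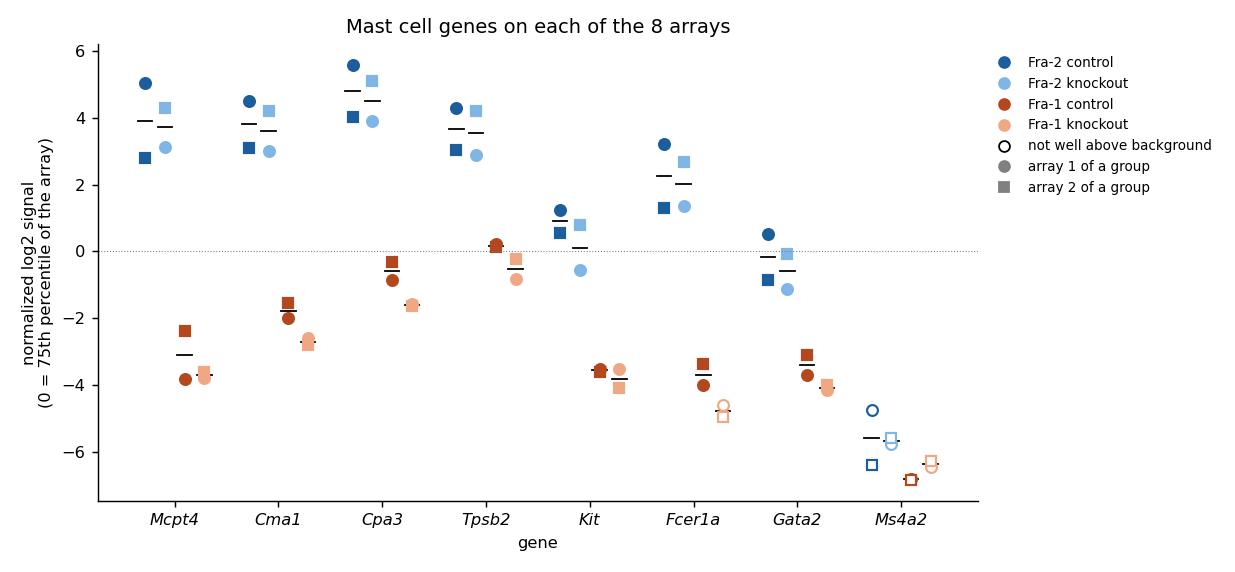
Normalized log2 signal (vertical axis) of the 7 tested mast cell genes and Ms4a2 on each array. Colours mark the 4 groups, circles and squares the 2 arrays of a group, short bars the mean of a group, and open symbols a probe not well above background. Every Fra-2 line array lies above every Fra-1 line array for the 7 tested genes, whereas Ms4a2 is open throughout.

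By group means, all 7 genes fell in 1 order, with Fra-2 control highest, then Fra-2 knockout, Fra-1 control and Fra-1 knockout. The first 2 of these groups overlapped for all 7 genes. The share of all features with this order or this overlap was not counted, so both are descriptions only. The lowest Fra-2 knockout array stood above the highest Fra-1 control array for all 7. This follows from the full separation of the lines, which held for 24.7% of all features. A two-sided exact permutation test of 4 against 4 arrays gave p = 0.0286 for each of the 7, the smallest p this design allows. Within slide 1, which held 5 arrays, the median difference of the 7 genes was −5.64, and within slide 2, with 3 arrays, −6.17. Between control arrays alone it was −5.38. With normexp in place of the scanner's background correction, the 7 genes were still called lower, by smaller folds of 3.96 (Gata2) to 49.8 (Mcpt4).

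The question the study's groups were made for is whether loss of Fra-1 or of Fra-2 changes expression in these cells. In the Fra-1 line, the 7 mast cell genes had lower group means in the knockouts and none passed the test. Fitted log2 differences ran from −1.09 (Fcer1a) to −0.25 (Kit), with limma adjusted p from 0.678 to 0.911. With normexp in place of the scanner's background correction they were smaller, with a median of −0.16 in place of −0.69. Fcer1a moved to −0.12, Mcpt4 to −0.16, Gata2 to −0.049 and Kit to 0.077. Larger differences remained for Tpsb2 at −0.64, Cpa3 at −0.64 and Cma1 at −0.50, so the shrinkage was uneven across the genes. Of all features, 0.013% were called in this comparison, and 8.83% had an unadjusted p below 0.05, as none of the 7 did. Both controls stood above both knockouts for 5 of the 7 genes, Cma1, Cpa3, Tpsb2, Fcer1a and Gata2, and for 18.8% of all features. Across the 7 genes the 95% intervals reached from −2.83 to 1.49, so that a change of several fold in either direction was not detectable for some of them with 2 arrays a group.

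The gap of Mcpt4 in the Fra-1 line rested on 1 control. Its difference was −0.59 ± 0.85 (SE), and without Fra-1 control 2 it was 0.13. For Kit, −0.25 ± 0.48 became 0.03 without Fra-1 knockout 2. Fcer1a, above background only in the controls, was at least 1.73-fold lower in the knockouts on the scanner's processed signal and did not pass (limma adjusted p = 0.692); this bound depends on the background correction, since normexp gave a log2 difference of −0.12. The dimmer Tpsb2 probe showed a wider gap than the brighter, −2.15 against −0.69, and did not pass either (limma adjusted p = 0.470). Fibroblast markers moved the same way between these groups, with a median of −1.30 and 7 of 10 at an unadjusted p below 0.05, 0 of them called. Mesothelial markers had a median of −0.58, with 3 of 9 at an unadjusted p below 0.05 and 0 called, whereas the median was −0.11 for macrophage markers and 0.58 for B cell markers. The part of these lists in the mast cell values was not tested.

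In the Fra-2 line no mast cell gene passed the test either, and here the 2 arrays of each group lay apart. Log2 differences, knockout minus control, ran from −0.78 (Kit) to −0.14 (Tpsb2), with limma adjusted p from 0.744 to 0.986. None of 23111 features was called in this comparison, 0% in either direction, although 8.81% had an unadjusted p below 0.05, which none of the 7 had. Both controls stood above both knockouts for 0 of the 7 genes and for 20.1% of all features. The 95% intervals reached from −2.28 to 1.87.

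Within the Fra-2 line the mast cell genes rose and fell together from array to array, across genotype. Fra-2 control 1 and Fra-2 knockout 2 stood above Fra-2 control 2 and Fra-2 knockout 1 for all 7 genes, an arrangement seen in 12.9% of all features and picked out after the values were seen. Relative to the mean of the line, the 7 genes averaged 0.91 on Fra-2 control 1 (from 0.69 to 1.22) and 0.45 on Fra-2 knockout 2 (from 0.30 to 0.59). They averaged −0.58 on Fra-2 control 2 (from −1.02 to 0.04) and −0.78 on Fra-2 knockout 1 (from −1.08 to −0.68). Each of the 2 slides held 1 Fra-2 control and 1 Fra-2 knockout array. The differences by slide therefore restate the arrangement picked above, which fixes their opposite directions. On slide 1 all 7 genes were lower in the knockout, with a median of −1.69, and on slide 2 all 7 were higher, with a median of 1.11.

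Leaving out 1 array could turn the direction, which follows in large part from the arrangement picked above and is not a separate result. Without Fra-2 control 1, 6 of the 7 genes were higher in the knockout (median 0.48), and likewise without Fra-2 knockout 1 (median 0.38), Kit being the exception in both. Without Fra-2 control 2 or without Fra-2 knockout 2 all 7 were lower. Fra-2 knockout 1 was also the array with the lowest share of spots above background, and the part of this in the mast cell values was not tested. The arrangement was not confined to mast cell genes, since 12.9% of all features had it. The lists are short, and 4 of the 8 basophil genes listed also stand in another list. Counts of 1 or 2 genes are not read as results about those cells. The arrangement held for 3 of 6 basophil genes, 3 of 6 dendritic cell markers, 3 of 9 progenitor genes and 2 of 9 mesothelial markers tested. It held for 1 of 8 T cell and NK cell markers, 1 of 6 eosinophil markers and 0 of the tested markers of macrophages (12), large resident peritoneal macrophages (10), B cells (8), neutrophils (8) and fibroblasts (10).

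**Figure D2:**
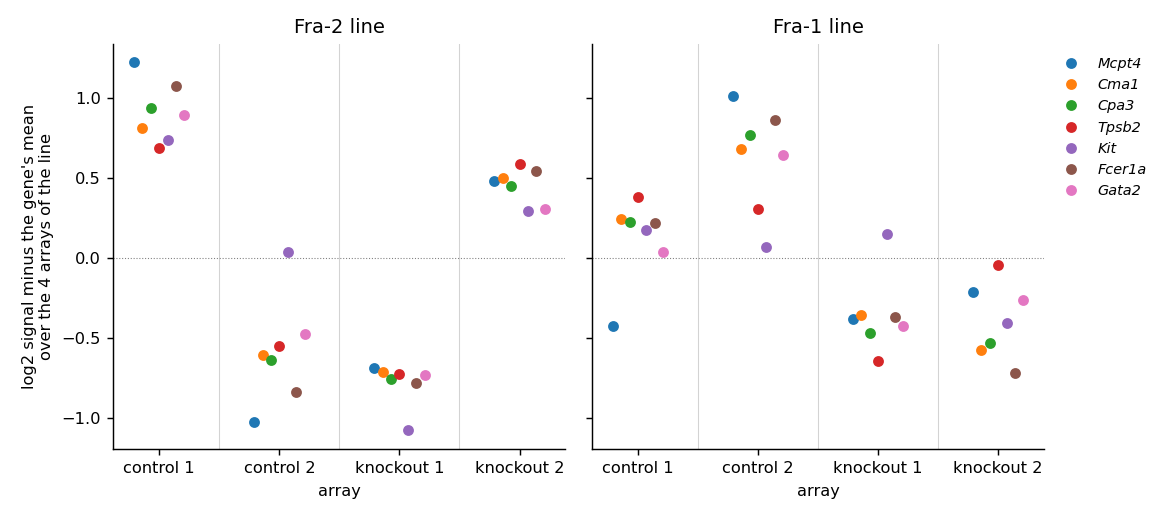
Deviation of each mast cell gene from its own mean over the 4 arrays of its line, in log2 units (vertical axis), by array, with 1 colour per gene. In the Fra-2 line, control 1 and knockout 2 lie above 0 for all 7 genes and knockout 1 lies below 0 for all 7, control 2 also except for Kit at 0.04; in the Fra-1 line the controls lie mostly above the knockouts.

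The effect of Fra-1 loss minus the effect of Fra-2 loss was tested directly. The gene lost, the Cre driver and the thioglycollate label differ together between these effects and cannot be told apart. None of the 7 genes passed, with log2 values from −0.85 (Fcer1a) to 0.53 (Kit) and limma adjusted p from 0.798 to 0.931. None of the 7 had an unadjusted p below 0.05, as 9.55% of all features did, and 0.00433% of all features were called. The intervals, from −3.33 to 2.55, leave differences of several fold between both effects undetectable here.

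**Figure D3:**
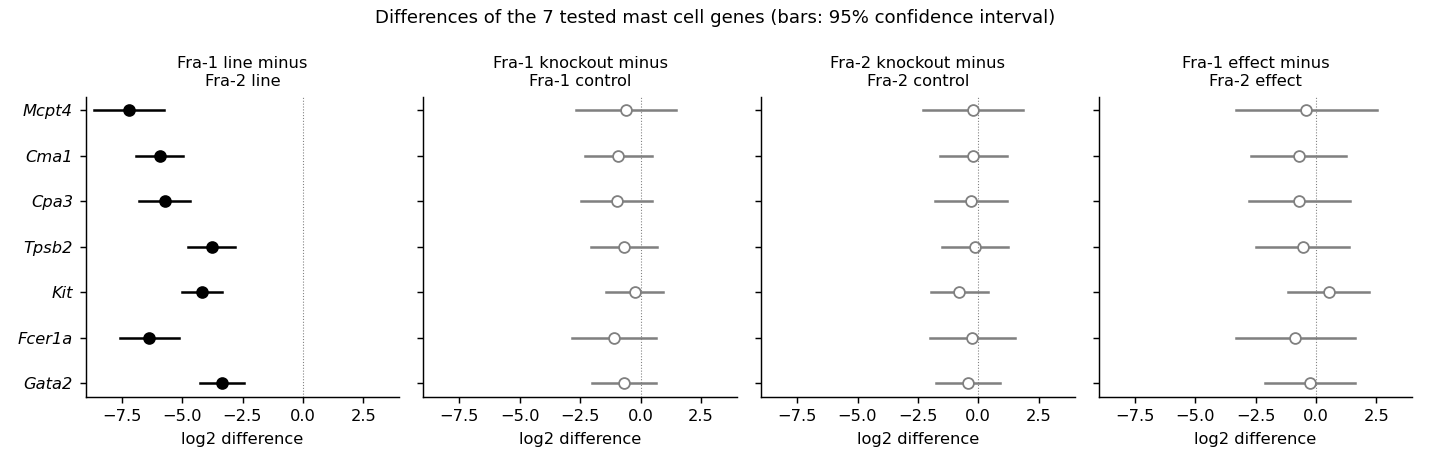
Log2 differences of the 7 tested mast cell genes in the 4 comparisons, with 95% confidence intervals from limma; filled black points passed the adjusted threshold and open grey points did not. The line comparison stands clear of 0 for all 7 genes, and all intervals of the other 3 comparisons include 0.

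Genes that work beside the members were described from lists chosen by function. The line calls of each list stand beside 26.3% of all features called lower and 27.3% called higher. Genes with a probe above background on all 8 arrays numbered 17, 15, 20 and 17 in the next 4 lists. Some counts also include genes that passed the filter only where they were high, which fixes the direction of those genes. Among 21 tested genes for mediator synthesis, granule content and granule proteases, 17 were called lower and 2 higher in the Fra-1 line. Tph1, which makes the serotonin precursor, differed by −7.06 ± 0.47, and was above background on 1 of 4 Fra-1 line arrays. It passed the filter on dim probes only through the Fra-2 line, where it was high, so its difference and call are not read as results. Hdc, the enzyme that makes histamine, read 3.00 and 2.18 in the Fra-2 controls, 4.30 and 4.58 in the Fra-2 knockouts and −2.47 to −1.91 over the Fra-1 line, a difference of −5.73 ± 0.24. Alox5, the first enzyme of leukotriene synthesis, differed by −5.41 ± 0.23. Hpgds, the haematopoietic prostaglandin D synthase, went the other way, at 4.44 ± 0.14. All 4 of these passed (limma adjusted p from 1.61e-05 to 0.000117), with the limit given for Tph1. The Fra-2 arrangement of the 7 members was shared by 6 of these 21 genes, Tph1 among them and Hdc, Alox5 and Hpgds not.

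Of 20 surface receptors of mast cells tested, 10 were called lower and 8 higher in the Fra-1 line, with a median difference of −0.44. Mrgprb1 and Mrgprb2, receptors that answer to basic peptides and secretagogues, were above background on all 4 Fra-2 line arrays and on none of the Fra-1 line. They were at least 12.7-fold and at least 9.31-fold lower there (limma adjusted p = 0.000629 and 0.000229). Both passed the filter on dim probes only where they were high, so their calls are not read as results. Slc6a4, the serotonin transporter, differed by −4.37 ± 0.44 (SE, limma, adjusted p = 0.000533). Il1rl1, the interleukin-33 receptor, differed by −3.68 ± 0.42 on its brightest probe and by −4.39 on the next, whereas the other probe gave −0.05. These 4 shared the Fra-2 arrangement of the members.

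Signalling genes downstream of the IgE receptor moved in both directions. Of 20 tested, 12 were called lower and 3 higher, with a median of −0.58. The adaptors Lcp2 and Grap2 were lower, by −2.50 ± 0.14 and −1.86 ± 0.25, and the adaptors Lat and Lat2 higher, by 2.55 ± 0.37 and 2.49 ± 0.12 (SE, limma, adjusted p from 4.41e-05 to 0.0021). Fcer1g, the receptor chain that macrophages also use, was named after its values were seen: it differed by −0.30 and did not pass (limma adjusted p = 0.0834). Thus of the receptor's 3 chains Fcer1a was lower, Ms4a2 was not measured above background, and Fcer1g did not pass.

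The list of Kit ligand, Kit signalling, cytokines and mast cell transcription factors held 11 genes called lower and 4 higher of 23 tested, with a median of −0.59. Il6 and Csf2, cytokines that mast cells and other cells secrete, were lower, Il6 by −7.65 ± 0.53 (SE, limma, adjusted p = 0.000141). Csf2 was lower by at least 9.13-fold, with no Fra-1 line array above background (limma adjusted p = 0.000167). Csf2 passed the filter on dim probes only where it was high, so its call is not read as a result. Kitl, which encodes stem cell factor, the ligand of Kit, was higher in the Fra-1 line by 2.88 ± 0.15 (SE, limma, adjusted p = 5.61e-05). Il13, a type 2 cytokine, was above background on 3 of 4 Fra-2 line arrays and on none of the Fra-1 line. No fold is given for Il13 (limma adjusted p = 0.0073), and its call is not read as a result for the same reason as Csf2. No gene of these 4 lists was called in either knockout comparison by limma. At an unadjusted p below 0.05 for Fra-1 loss stood 2 of 21, 2 of 20, 2 of 20 and 2 of 23 genes of the lists in the order given, beside 8.83% of all features. For Fra-2 loss these were 5 of 21, 5 of 20, 6 of 20 and 1 of 23, beside 8.81% of all features.

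The chymase and tryptase genes of the members sit in gene clusters, and their neighbours were read in chromosome order; both stretches were chosen after the values were seen. In the cluster on chromosome 14, which runs from Cma1 to the granzymes, all 15 genes had a probe, 5 passed the filter on dim probes, and 7 were not above background on any array. Of the 5, Cma1, Cma2 and Mcpt4 were above background on all 8 arrays and Ctsg on 2 of the 4 Fra-1 line arrays, and these were called lower in the Fra-1 line. Gzmc was above background on all 4 Fra-2 line arrays and on none of the Fra-1 line, so that it passed the filter only where it was high and is not read as a result. Cma2, next to Cma1, differed by −3.84 ± 0.47 (SE, limma, adjusted p = 0.0011) and shared the members' Fra-2 arrangement. Ctsg, cathepsin G of neutrophils and mast cells, differed by −4.30 ± 0.64 (SE, limma, adjusted p = 0.0023) but followed another order within the Fra-2 line, highest on Fra-2 knockout 1 at 2.93 and at −0.83, −1.93 and 0.07 on Fra-2 control 1, Fra-2 control 2 and Fra-2 knockout 2. Mcpt1, a chymase of mucosal mast cells, and Mcpt8, a protease of basophils, were among those not above background on any array.

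In the tryptase cluster on chromosome 17, 5 of 6 genes had a probe, 4 passed the filter and 3 were called lower in the Fra-1 line. Tpsb2 was one, with its neighbour Tpsg1 at −3.61 ± 0.60 (SE, limma, adjusted p = 0.0037) and Prss34 at −4.09 ± 0.37 (SE, limma, adjusted p = 0.000353). These 2 differences include background, since Tpsg1 was not well above it on either Fra-1 knockout array and Prss34 not on Fra-1 knockout 2. Prss28, a tryptase-like gene between Prss34 and Tpsb2, differed by 0.12 and did not pass (limma adjusted p = 0.813). Neighbours in both clusters are related in sequence, and cross-hybridisation of their probes was not tested.

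**Figure D4:**
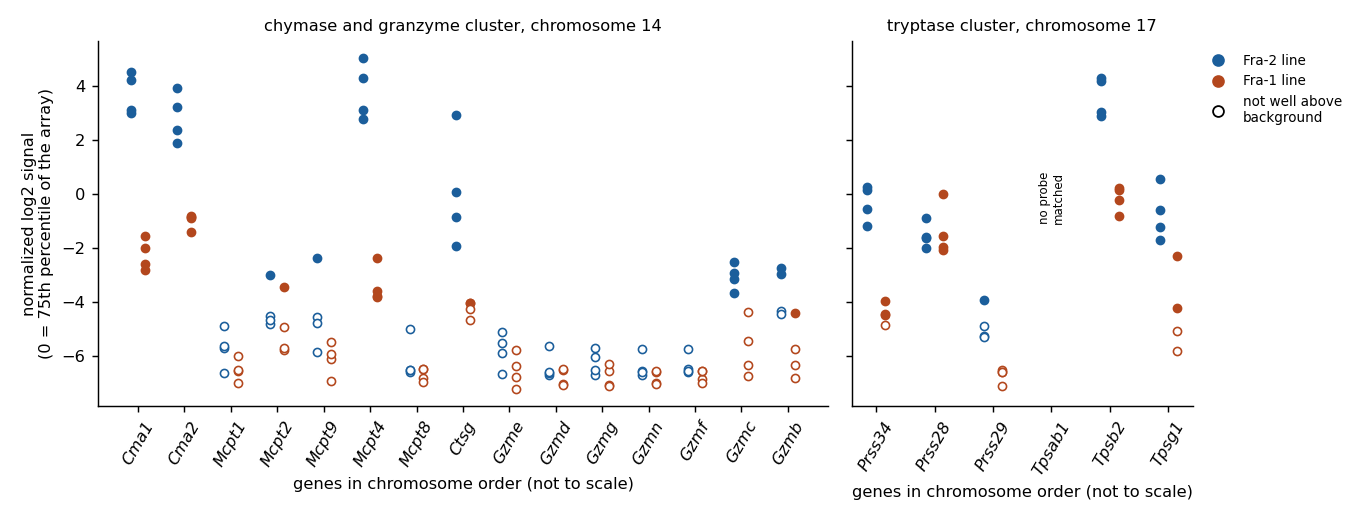
Normalized log2 signal (vertical axis) on each array for the genes of the chymase and granzyme cluster and of the tryptase cluster, in chromosome order and not to scale. Blue points are Fra-2 line arrays, orange points Fra-1 line arrays, and open points were not well above background. Cma1, Cma2, Mcpt4 and Tpsb2 separate the lines, Prss28 does not, and most granzymes are open on all arrays.

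Outside the list, the 10 named genes whose profile over the 8 arrays was most like the mean profile of the 7 members had a Pearson r from 0.992 to 0.999. This likeness is given as a description over 8 arrays and is mostly the gap between the lines, so that a lower signal in the Fra-1 line and the members' arrangement within the Fra-2 line come with the choice of these genes. In order they were Cyp11a1, Dnaja4, Tph1, Tmem117, Itga2b, Mcpt-ps1, Ifitm5, Gimap9, Cav1 and Nek8. Of the 10, 4 (Cyp11a1, Tmem117, Itga2b and Mcpt-ps1) were above background on no Fra-1 line array and passed the filter through the Fra-2 line alone. Tph1, above background on 1 Fra-1 line array, also passed through the Fra-2 line alone. Cyp11a1, the enzyme that cuts the cholesterol side chain in steroid synthesis, was at least 28.6-fold lower in the Fra-1 line. Mcpt-ps1, a mast cell protease pseudogene, was at least 52.7-fold lower. Both folds come with the filter and with the choice of these genes, so they are not read as results. Nek8, a kinase of primary cilia, had the smallest difference of the 10, at −1.05 ± 0.10 (SE).

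Markers of other cells were also called between the lines, in a comparison where 26.3% of all features were called lower and 27.3% higher. Of 6 basophil genes tested, 3 were called lower and 2 higher; Prss34 was lower, Basp1 was higher by 3.33 ± 0.19 (SE, limma, adjusted p = 6.89e-05), and Mcpt8, which defines basophils, was not above background on any of the 8 arrays. Of 9 tested genes that progenitor cells express beside Kit or Gata2, 4 were called lower and 2 higher, among them Prtn3 at −5.63 and Elane at 2.64. Macrophage markers were called lower for 9 of 12 and higher for 2. Their mean level was 6.57 to 6.71 in the Fra-2 controls, 6.47 to 6.63 in the Fra-2 knockouts, 5.71 to 5.86 in the Fra-1 controls and 5.46 to 5.62 in the Fra-1 knockouts.

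Markers of large resident peritoneal macrophages were called lower for 10 of 10, with a median difference of −4.76. Of this list, 8 genes had a probe above background on all 8 arrays. Timd4 was at least 633-fold lower, with no Fra-1 line array above background. It passed the filter on dim probes only where it was high, so neither this fold nor its place in the count is read as a result. The mean level of the list was 3.90 to 4.73 over the Fra-2 line and −1.05 to −0.62 over the Fra-1 line. B cell markers (5 with a probe above background on all 8 arrays) were called lower for 8 of 8 tested (median −4.43). Their mean level was 0.89 to 1.82 over the Fra-2 line and −3.46 to −1.63 over the Fra-1 line, and Cd79a was not above background on any Fra-1 line array. T cell and NK cell markers were called lower for 5 of 8 and higher for 2, and dendritic cell markers lower for 3 of 6. Eosinophil markers were called higher for 3 of 6 and lower for 1, and neutrophil markers higher for 2 of 8 and lower for 2. Over all features 26.3% were called lower and 27.3% higher, and the neutrophil counts lie near these shares.

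Fibroblast markers were called higher in the Fra-1 line for 9 of 10, with a median of 4.64. Mesothelial markers were called higher for 8 of 9, with a median of 1.60. A probe above background on all 8 arrays was held by 6 fibroblast and 5 mesothelial genes. Pdgfra, a fibroblast receptor, was above background on all 4 Fra-1 line arrays and on none of the Fra-2 line, as was Lrrn4 of mesothelium. They were at least 61.5-fold and at least 9.76-fold higher in the Fra-1 line. Both passed the filter on dim probes only where they were high, so these folds are not read as results. For genes of any list that passed the filter only where they were high, the filter fixed the direction. The lower mast cell signal of the Fra-1 line stood beside lower signal for resident macrophage and B cell markers. It also stood beside higher signal for fibroblast and mesothelial markers. The part of these shifts in the mast cell result was not tested.

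**Figure D5:**
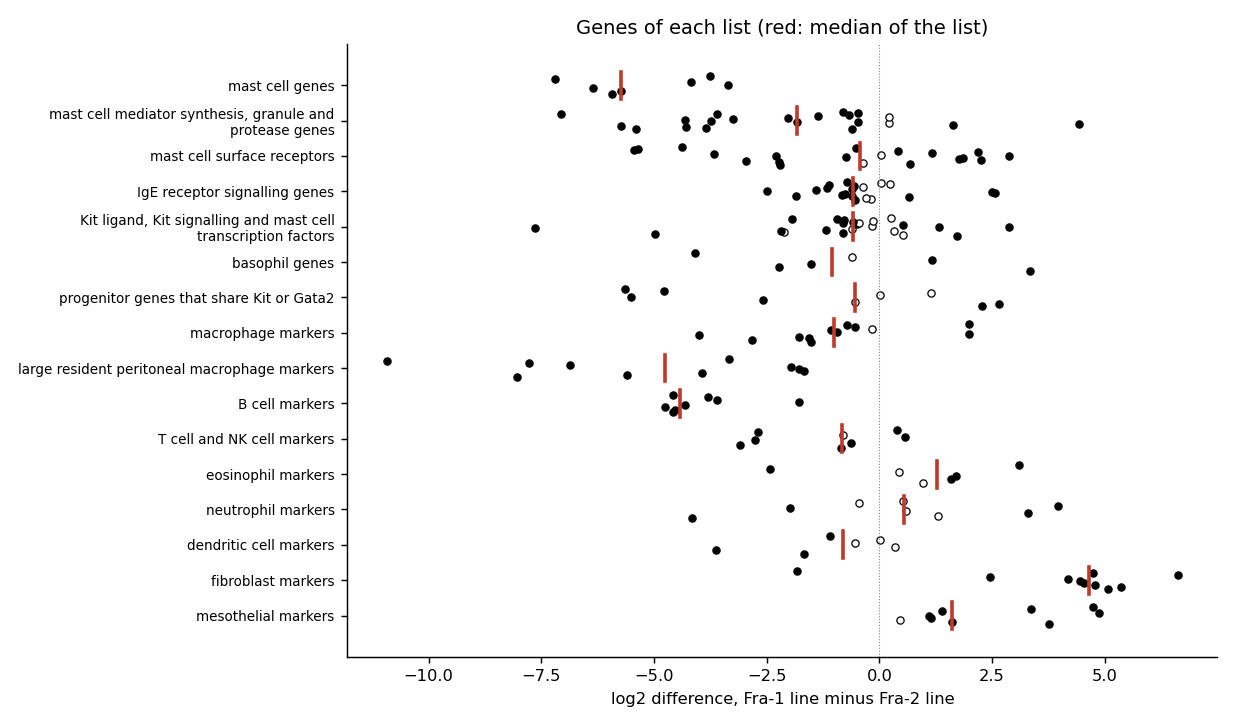
Log2 difference, Fra-1 line minus Fra-2 line (horizontal axis), of each tested gene by list; filled points passed the adjusted threshold, open points did not, and red bars are the list medians. The median of the mast cell genes, −5.73, lies among lists that point left, such as resident macrophage markers at −4.76 and B cell markers at −4.43, and fibroblast markers point right at 4.64.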

How the data were processed

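Mouse peritoneal cells were profiled on 8 single-colour Agilent arrays, scanned in Cy3. The deposited scanner files came from Feature Extraction 11.5.1.1 (protocol GE1_1105_Oct12, build mm9), per the file headers. Per the file headers, the processed signal is a linear intensity with background already subtracted, and the columns for background and outliers are flags of 0 or 1. A deposited table of the whole series holds log2 values. It followed the scanner values with a slope of 1.0, each probe being centred on its median; how it was scaled is not stated in the file.

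Outlier spots (191 to 317 per array) were removed, the spots of each probe averaged, and log2 signals expressed relative to the 75th percentile, taken within each array from 55681 noncontrol probes. The filter on dim probes asked that at least 1 of the 4 groups had all its arrays well above background, and 31159 probes passed. Of the noncontrol probes, 50.3% were named through accessions in a RefSeq table of GRCm38.p6, used for names, gene order and promoter sequence. For each gene the brightest kept probe was used. Group means of the 4 groups were fitted with limma 3.58.1 (R 4.3.3) over the 8 arrays together, with 4 residual degrees of freedom and a prior worth 1.99. A feature with no spot left on both arrays of a group was left out of that group's comparisons, and one missing on 1 array was fitted on the rest; no mast cell gene lacked a value. A fold is given as a bound where no array of a group was above background. The bright group's mean was set against the dim arrays' own signal or, where higher, the lowest signal of any probe above background there. This bound is approximate, since a probe can exceed that lowest signal and still not be above background. A Fosl2 probe did so on Fra-2 knockout 1, at −3.96 against −4.47. Replicate numbers carry no pairing. The fit recovered large changes set into simulated data, with independent noise drawn from the fitted spread. That check asked nothing of the share found among changes as small as the knockout differences here. All members, lists, stretches and motifs were chosen with earlier results of these data known. Genes outside the members were named by a rule: up to 4 called genes of the largest change per list, the 10 most like the members, and the targeted genes; other names are marked as chosen after their values were seen. The number of arrays limits precision.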

Additional observations from a re-analysis of the deposited data

How the results depend on the processing

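The line difference of the 7 mast cell genes kept its direction and its call under all 125 alternatives computed for single genes, and the count of called genes was 7 in each except the filter on all 8 arrays, which left 6 tested and 6 called. In both knockout comparisons and their difference, 0 of the genes tested were called under every alternative. All 29 reversals were among these uncalled values, and the cause was not tested. With normexp, Kit gave 0.077 for Fra-1 loss, and the effect difference was 0.090 for Mcpt4, 0.078 for Fcer1a and 0.32 for Gata2. Leaving out 1 array gave, for Fra-1 loss, −1.31 to 0.13 for Mcpt4 and −0.53 to 0.028 for Kit. For Fra-2 loss it gave −1.33 to 0.92 for Mcpt4, −0.92 to 0.50 for Cma1, −1.09 to 0.48 for Cpa3, −0.79 to 0.52 for Tpsb2, −1.19 to 0.72 for Fcer1a and −1.11 to 0.26 for Gata2. For the effect difference it gave −1.51 to 0.73 for Mcpt4, −1.48 to 0.094 for Cpa3, −1.21 to 0.11 for Tpsb2, −0.16 to 1.22 for Kit, −1.81 to 0.11 for Fcer1a and −0.94 to 0.43 for Gata2.

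Counts over all features moved more. For Fra-1 loss, 3 features were called, against 22 with quantile normalization, 24 with a common floor, 1 with only the groups compared and 0 with normexp, no filter, the filter on all 8 arrays, the slide term or a trended prior, and 0 to 17 without 1 array. For Fra-2 loss, 0 were called, against 14 with quantile normalization, 10 with normexp, 4 with the filter on all 8 arrays, 53 with a trended prior, 14 with a common floor and 3 with the mean of probes, and 0 to 45 without 1 array. For the effect difference, 1 was called, against 10 with quantile normalization and 0 with normexp, no filter, the filter on all 8 arrays, the slide term, a trended prior or a common floor, and 0 to 27 without 1 array. No paired analysis was possible because the replicate numbers follow accession order and the labels give none. With 2 arrays a group, an exact permutation test cannot go below p = 0.333. Dim readings, such as those of Fcer1a in the Fra-1 line and Ms4a2, are limited by signal over background.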
